A study of Homo sapiens with 6 samples.

Results

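The 10 genes described here write, maintain or oxidise methylated cytosine in DNA, or are linked to base excision and repair. They are the DNA methyltransferase genes DNMT1, DNMT3A and DNMT3B, UHRF1, the oxidase genes TET1, TET2 and TET3, and TDG, MBD4 and GADD45A. They were taken by name, and all of their probe sets that the platform's annotation assigns to 1 gene were used, 21 of the 54675 probe sets of the array. Of these, 19 had a mean at or above a low-value level of 2.64 (log2), the 40th percentile of all probe sets, and were tested; the other two belong to TET1 and DNMT3A. Total RNA came from A2058, an established human melanoma cell line, in 3 forms: the Mock line, the line overexpressing TET2WT and the line overexpressing TET2M, which another label calls Mut. Each form was grown for 7 days in DMEM with 4.5 g/L glucose, called high, or 1 g/L, called normal, which made 6 cultures, with 1 Affymetrix array for each. The sources used here do not give the change carried by TET2M, the promoter of the constructs or whether the lines were clones or pools.

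Methyl groups are set on cytosine of CpG dinucleotides by DNMT3A and DNMT3B, and DNMT1, guided by UHRF1, copies the pattern onto the new strand after DNA replication. TET enzymes oxidise 5-methylcytosine in steps that need oxygen, iron and 2-oxoglutarate, and the glycosylase TDG removes the later oxidation products for repair. Loss of TET activity and of 5-hydroxymethylcytosine is a known feature of melanoma, and TET2 has been linked to glucose through the kinase AMPK.

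Every value is a log2 probe set value as deposited, and every difference is a log2 difference with its standard error from limma, fitted over all 6 arrays with a term for line and a term for glucose. A probe set passed when its p adjusted over all 32768 probe sets tested was under 0.05. No combination was repeated, so the error is the spread of a difference over the 2 concentrations or the 3 lines, and p-values reflect nothing beyond the scatter of single arrays, which may be technical. The number of arrays limits the precision. The medians of the arrays lay between 2.96 and 3.03, and at any rank the arrays differed by at most 0.12, so their distributions were nearly equal as deposited. The 3′ minus 5′ difference of the actin control probe sets was 1.65 in TET2M at normal glucose. On the other arrays it was 1.9 to 2.06. The part of RNA quality in the differences was not tested. The melanocyte markers SOX10 (9.38 to 9.65), S100B (7.20 to 7.90), MITF and PMEL (3.55 to 4.20) read above the low-value level on all 6 arrays. MLANA, TYR and TYRP1 read below it on all 6. MITF was lowest in TET2WT, at 6.40 and 6.30 at high and normal glucose, against 6.96 and 6.93 in Mock and 6.60 and 6.82 in TET2M. In bulk RNA, fewer cells of a type and less RNA per cell cannot be told apart.

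On a pair of its 3 probe sets TET2 was lowest in Mock, intermediate in TET2M and highest in TET2WT. On 1569385_s_at its values were, at high and then normal glucose, 3.81 and 4.13 in Mock, 9.54 and 9.68 in TET2WT, and 7.57 and 7.37 in TET2M. The lines did not overlap, and the order was TET2WT, TET2M, Mock at both concentrations. TET2WT exceeded Mock by 5.64 ± 0.14, which is 49.9-fold (adjusted p = 5.91e-05, limma), and this was the difference of rank 2 by size among the 32768 probe sets. TET2M exceeded Mock by 3.50 ± 0.14, or 11.3-fold (adjusted p = 0.00173, limma), which was rank 1 in that comparison. Against TET2M, TET2WT was higher by 2.14 ± 0.14, or 4.41-fold (adjusted p = 0.00186, limma; higher at both concentrations).

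The second TET2 probe set, 235461_at, gave the same order of lines with more spread. It read 2.10 and 2.64 in Mock at high and normal glucose, 6.64 and 6.87 in TET2WT, and 4.57 and 3.89 in TET2M. Both Mock arrays lay below the low-value level, so this probe set entered the test only through the overexpressing lines. Set against that level in place of the Mock values, TET2 was at least 17.3-fold higher in TET2WT and at least 3.01-fold higher in TET2M. These are bounds with no test, and no other size is read from the difference of this probe set from Mock. That difference is still included in the counts, medians and figures of the tested member probe sets, also under other processing. Under the main settings, the total counts and the medians between lines are given with and without this probe set. Between TET2WT and TET2M the difference was 2.52 ± 0.27 (adjusted p = 0.0105, limma).

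The third TET2 probe set, 227624_at, did not follow the constructs. It read 5.23 and 5.22 in Mock, 5.30 and 5.15 in TET2WT, and 5.41 and 5.31 in TET2M at high and normal glucose. The difference between TET2WT and Mock was 0 with a 95% interval from -0.24 to 0.24, which leaves out changes of the size seen on the other two probe sets. Where on the TET2 transcript each probe set lies was not analysed here, and whether this probe set reads only the cells' own TET2 was not tested. Since the TET2 level differed between TET2WT and TET2M, the level of the construct and its sequence cannot be told apart in any comparison of these lines.

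**Figure D1:**
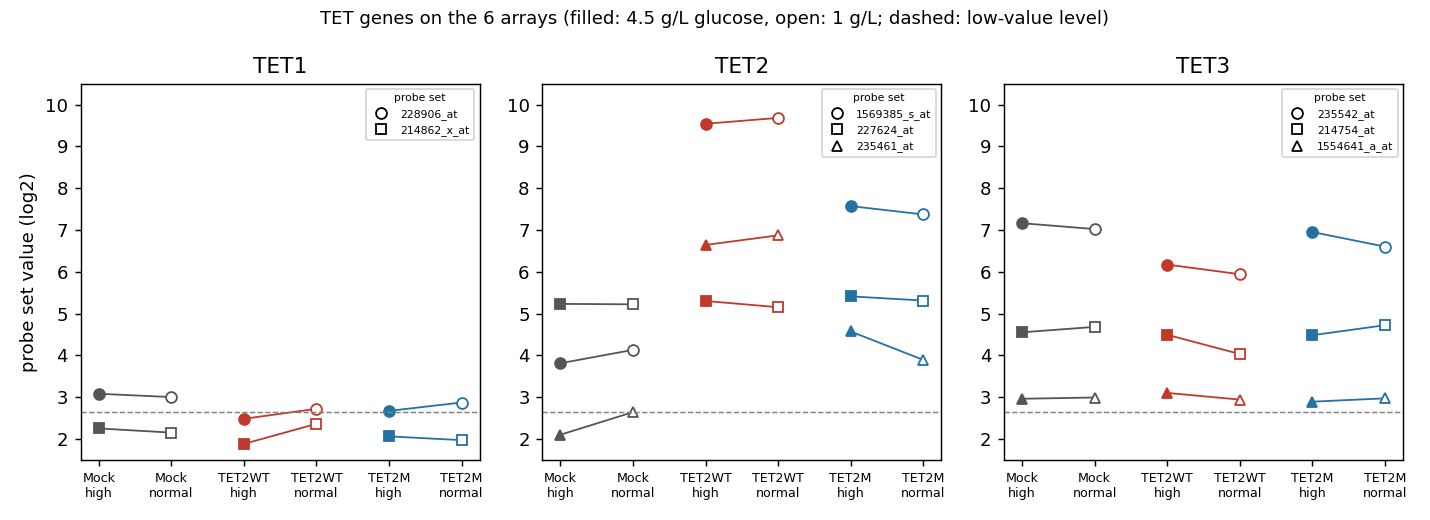
Probe set values (log2) of TET1, TET2 and TET3 on the 6 arrays, 1 point per array, with filled points at 4.5 g/L and open points at 1 g/L glucose and the low-value level dashed. TET2 1569385_s_at rises from 3.81 and 4.13 in Mock to 9.54 and 9.68 in TET2WT, while 227624_at stays between 5.15 and 5.41 and TET3 235542_at is lowest in TET2WT.

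TET3, a TET enzyme prominent in the oocyte and in neurons, was the other member of the 10 with a probe set that passed. On 235542_at it read 7.16 and 7.02 in Mock at high and normal glucose, 6.17 and 5.94 in TET2WT, and 6.95 and 6.60 in TET2M. The 3 lines did not overlap, with TET2WT lowest, and TET3 fell by 1.04 ± 0.11 on the log2 scale against Mock (adjusted p = 0.00859, limma; lower at both concentrations). It was also lower than in TET2M, by -0.72 ± 0.11 (adjusted p = 0.0314, limma; lower at both concentrations). Between TET2M and Mock the difference was -0.32 ± 0.11 and did not pass (adjusted p = 0.551, limma). The remaining TET3 probe sets did not show this difference. On 214754_at TET3 read 4.55 and 4.68 in Mock, 4.49 and 4.03 in TET2WT, and 4.48 and 4.72 in TET2M, so only the normal-glucose array of TET2WT was low, and the difference of -0.36 ± 0.18 did not pass (adjusted p = 0.377, limma). On 1554641_a_at all 6 arrays lay between 2.89 and 3.10, close to the low-value level. With the mean of the 3 probe sets TET3 differed by -0.45 between TET2WT and Mock (adjusted p = 0.0765, limma) and by -0.32 between TET2WT and TET2M (adjusted p = 0.187, limma), and without the glucose term the difference from TET2M had an adjusted p of 0.0992 in limma.

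The CpG dinucleotides upstream of the TET3 start sites are shown here, since TET3 was the member besides TET2 that passed and CpG is the site on which these enzymes act. RefSeq (GRCh38.p14) lists 2 start sites for TET3 in the promoter table used, and the 250 bases before each are printed 5′ to 3′ on the plus strand with each CpG in capitals, for chr2:73984660-73984909 and chr2:74002442-74002691.
TET3 upstream window 1: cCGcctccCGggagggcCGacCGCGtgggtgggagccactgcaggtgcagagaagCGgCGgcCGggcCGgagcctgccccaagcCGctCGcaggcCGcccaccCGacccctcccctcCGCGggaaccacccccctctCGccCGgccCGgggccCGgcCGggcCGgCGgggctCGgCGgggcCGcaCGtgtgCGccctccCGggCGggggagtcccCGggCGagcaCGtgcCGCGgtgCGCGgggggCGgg
TET3 upstream window 2: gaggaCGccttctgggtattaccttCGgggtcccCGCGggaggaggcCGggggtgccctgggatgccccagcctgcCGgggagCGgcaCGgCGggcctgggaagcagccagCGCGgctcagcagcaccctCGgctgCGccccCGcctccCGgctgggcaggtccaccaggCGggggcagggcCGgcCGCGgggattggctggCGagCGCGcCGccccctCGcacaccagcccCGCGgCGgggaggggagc
The first window held 37 CpG and the second 27, against a median of 11 over the 35116 windows of the table, where CG was counted once for both strands. At least as many were held by 4% of all windows for the first and 17.7% for the second, and 93.9% of all windows held a CpG. The promoter table had windows for 9 of the 10 genes, 20 in all, with between 3 CpG, upstream of DNMT3B, and 41, upstream of a start site of UHRF1. Methylation was not measured on these arrays, and which start site the probe sets report was not analysed here.

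TET1, the founding member of the TET family, read close to background. On 228906_at it was 3.08 and 3.00 in Mock at high and normal glucose, 2.48 and 2.72 in TET2WT, and 2.67 and 2.87 in TET2M. Both Mock arrays were above the other 4, and 1 TET2WT array lay below the low-value level. TET2WT differed from Mock by -0.44 ± 0.12 and did not pass (adjusted p = 0.138, limma). TET2M differed by -0.27 ± 0.12 and did not pass either (adjusted p = 0.624, limma). The other TET1 probe set, 214862_x_at, read between 1.88 and 2.36, below that level on all 6 arrays, and was not tested.

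Among the writers, DNMT1, the maintenance methyltransferase, was nearly level. It read 9.52 and 9.47 in Mock at high and normal glucose, 9.45 and 9.46 in TET2WT, and 9.47 and 9.37 in TET2M. All 6 arrays lay within 0.15 of each other, with differences of -0.04 ± 0.099 for TET2WT and -0.075 ± 0.099 for TET2M against Mock (adjusted p = 0.887 and 0.891, limma). The 95% interval of the first was -0.28 to 0.20. UHRF1, which binds hemimethylated CpG and brings DNMT1 to it, varied more, at 10.30 and 10.20 in Mock, 10.48 and 9.81 in TET2WT, and 10.13 and 9.89 in TET2M. TET2WT held both the highest and the lowest UHRF1 value of the 6, so its difference from Mock, -0.10 ± 0.15, was smaller than its own spread (adjusted p = 0.790, limma).

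DNMT3A, a methyltransferase that sets new methylation, leaned higher in TET2WT on both of its tested probe sets. On 222640_at it read 3.86 and 4.15 in Mock at high and normal glucose, 4.40 and 4.58 in TET2WT, and 4.10 and 4.36 in TET2M. TET2WT lay above Mock without overlap, by 0.48 ± 0.10, and did not pass (adjusted p = 0.0722, limma). This probe set passed with the filter raised to the 60th percentile (adjusted p = 0.0455, limma), where 878 of all 21831 passed. It also passed with 1 probe set per gene (adjusted p = 0.0430, limma), where 608 of all 14428 did. Without a filter it did not pass (adjusted p = 0.0765, limma), where 814 of all 54613 did. With any 1 array left out the difference was 0.44 to 0.53. On 218457_s_at DNMT3A read 3.77 and 3.85 in Mock, 3.92 and 4.10 in TET2WT, and 3.66 and 3.53 in TET2M. Here TET2M was the lowest line and TET2WT the highest, with differences from Mock of -0.21 ± 0.12 and 0.20 ± 0.12 that did not pass (adjusted p = 0.685 and 0.447, limma). The third DNMT3A probe set, 244428_at, read between 2.31 and 2.49 and was not tested.

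DNMT3B, the other enzyme for new methylation, had 1 probe set. It read 5.54 and 5.43 in Mock at high and normal glucose, 5.25 and 5.08 in TET2WT, and 5.18 and 5.11 in TET2M. Both Mock arrays were above the 4 of the overexpressing lines, which overlapped each other. The differences of -0.32 ± 0.099 for TET2WT (adjusted p = 0.182, limma) and -0.34 ± 0.099 for TET2M (adjusted p = 0.530, limma) did not pass.

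**Figure D2:**
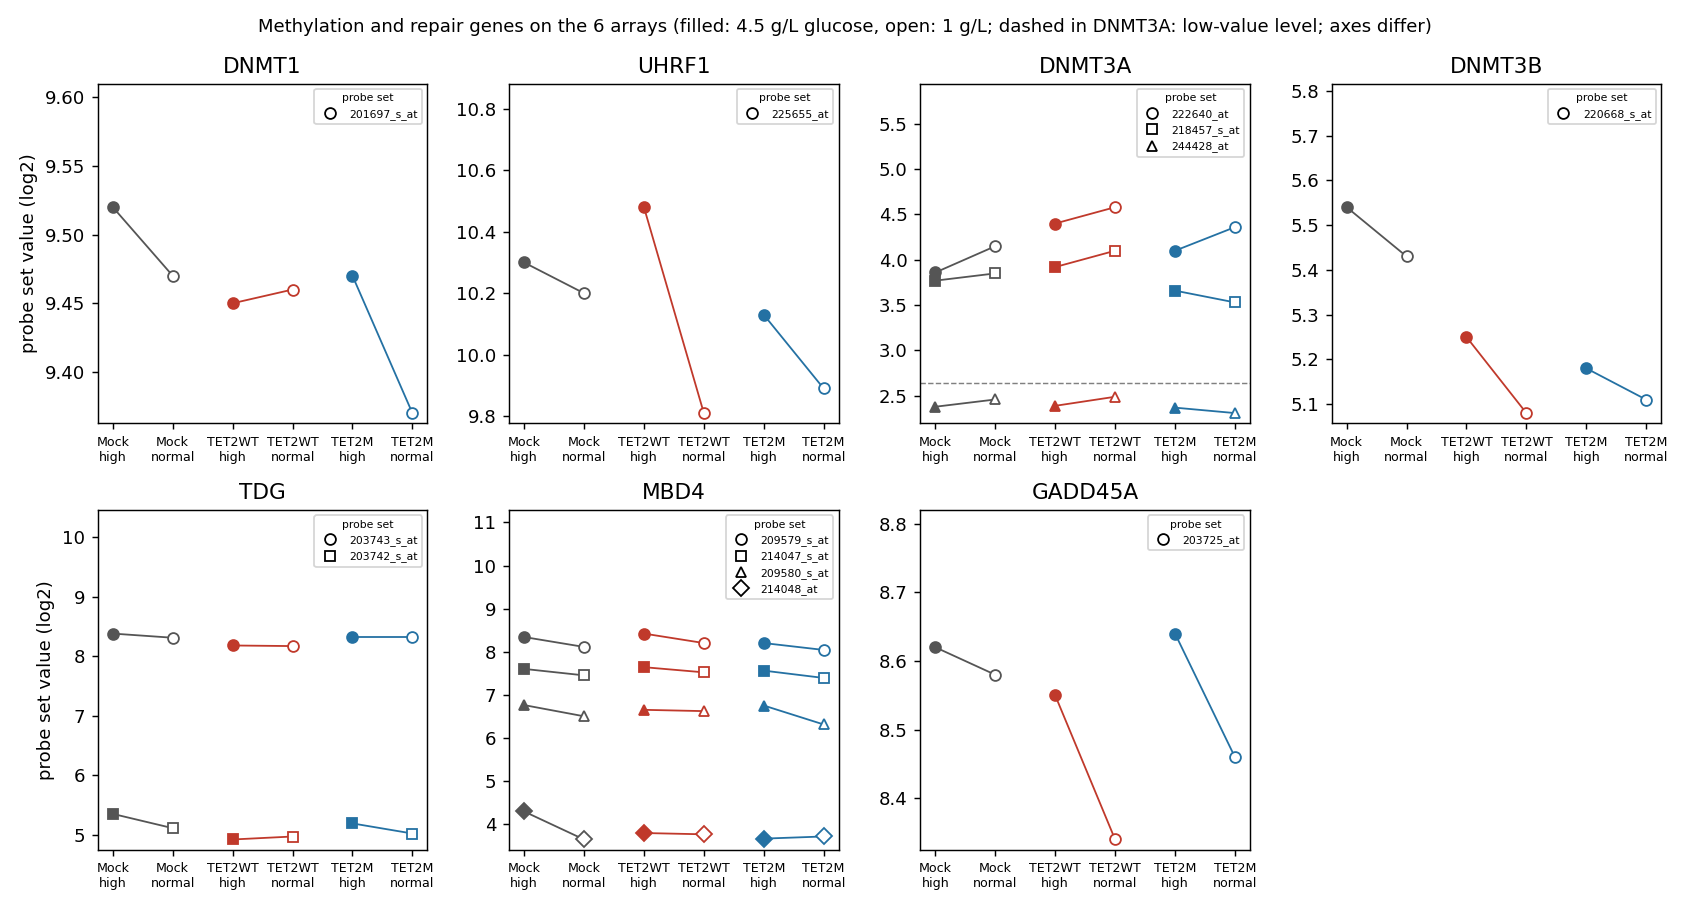
Probe set values (log2) of DNMT1, UHRF1, DNMT3A, DNMT3B, TDG, MBD4 and GADD45A on the 6 arrays, 1 point per array, with filled points at 4.5 g/L and open points at 1 g/L glucose. The axes differ between genes, so the fall of UHRF1 in TET2WT from 10.48 to 9.81 spans more than the whole DNMT1 panel, which covers 0.15.

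The excision and repair genes did not pass between any lines. TDG, which excises thymine and oxidised cytosine, read on 203743_s_at 8.38 and 8.31 in Mock at high and normal glucose, 8.18 and 8.17 in TET2WT, and 8.33 at both in TET2M. TET2WT was the lowest line on it and on 203742_s_at, where the 6 arrays lay between 4.92 and 5.35. The differences from Mock were -0.17 ± 0.098 and -0.28 ± 0.11 (adjusted p = 0.448 and 0.278, limma). MBD4, a thymine glycosylase with a methyl-CpG-binding domain, had 4 probe sets, and 0 of them passed between any lines. On 209579_s_at it read 8.34 and 8.11 in Mock, 8.42 and 8.20 in TET2WT, and 8.20 and 8.04 in TET2M. TET2WT was highest and TET2M lowest at each concentration on this probe set and on 214047_s_at, and the lines overlapped across concentrations. Its other probe sets ranged from 7.39 to 7.64 (214047_s_at), 6.31 to 6.76 (209580_s_at) and 3.64 to 4.29 (214048_at), the last with 1 high value, in Mock at high glucose. GADD45A, a stress-induced protein that has been linked to demethylation through repair, read 8.62 and 8.58 in Mock, 8.55 and 8.34 in TET2WT, and 8.64 and 8.46 in TET2M, with a difference of -0.15 ± 0.10 between TET2WT and Mock (adjusted p = 0.512, limma).

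In all, 3 of the 19 tested member probe sets passed between TET2WT and Mock, where 2.25% of all 32768 passed: 2 of TET2 were higher (1.01% of all) and 1 of TET3 was lower (1.24% of all). Between TET2M and Mock 1 passed, TET2 1569385_s_at, where 0.0549% of all passed and 0.0122% were higher. Between TET2WT and TET2M 3 passed, where 1.61% of all did: 2 of TET2 were higher (0.919% of all) and 1 of TET3 was lower (0.693% of all). At an unadjusted p under 0.05 in limma there were 7 of the 19 between TET2WT and Mock, where all probe sets gave 16.9%, 4 between TET2M and Mock (8.29%) and 5 between TET2WT and TET2M (14.4%). TET2 is the gene the lines overexpress, so its calls check the labels. Without 235461_at, whose Mock values are below the low-value level, 2, 1 and 2 of 18 passed in these 3 comparisons, and 6, 3 and 4 had an unadjusted p under 0.05. By a rule without a variance estimate, at least 1.5-fold the same way at both concentrations, 3 member probe sets were counted between TET2WT and Mock (2.07% of all), 2 between TET2M and Mock (0.369%) and 3 between TET2WT and TET2M (1.76%). For glucose, the same way in all 3 lines, 0 were counted (0.198%). Those counted were all of TET2 or TET3, and without 235461_at there were 2, 1 and 2 between the lines. The median difference of the 19 was -0.04 for TET2WT against Mock, beside -0.02 for all probe sets, and -0.075 for TET2M against Mock, beside -0.02. For TET2WT against TET2M it was 0.09, beside -0.005, and for glucose 0.087, beside -0.01. Over the 18 without 235461_at the medians between lines were -0.073, -0.088 and 0.0625 in the same order. With any 1 array left out, 1 residual degree of freedom remained: TET3 then did not pass (-1.11 to -0.96 against Mock), while the TET2 difference between TET2WT and Mock on 1569385_s_at was 5.46 to 5.82. It passed without either TET2M array and did not without any 1 of the Mock or TET2WT arrays, where 0 of all probe sets passed in limma. Between TET2M and Mock and between TET2WT and TET2M, 0 of all probe sets passed with any 1 array left out.

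**Figure D3:**
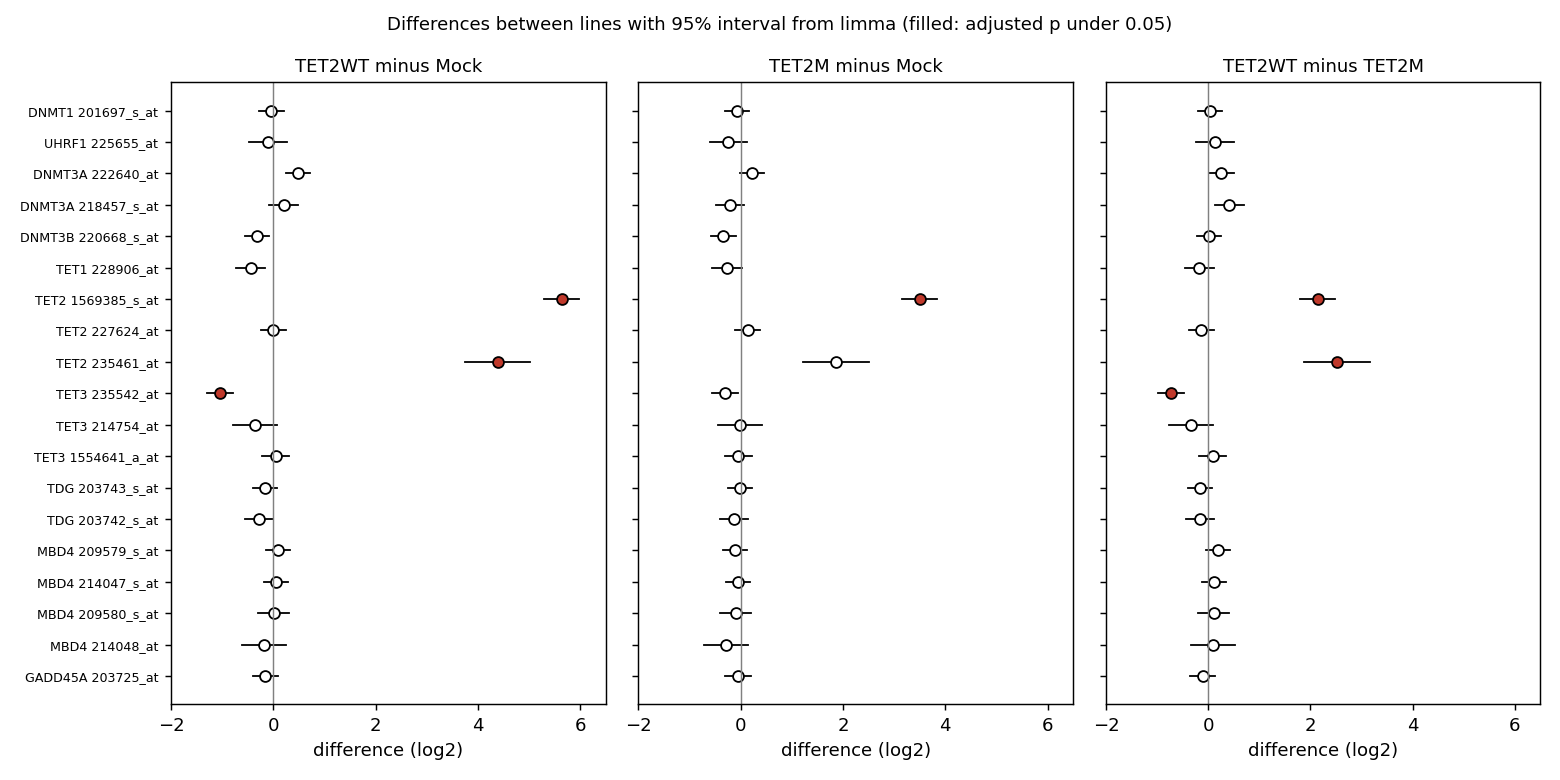
Difference between lines (log2) of the 19 tested probe sets with the 95% interval from limma, filled where the adjusted p was under 0.05. The points of TET2 235461_at against Mock rest on Mock values below the low-value level. TET2 stands at 5.64 and 3.50 against Mock on 1569385_s_at and at 0 and 0.14 on 227624_at, TET3 235542_at lies at -1.04 for TET2WT, and the DNMT1 interval runs from -0.28 to 0.20 for TET2WT.

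Between high and normal glucose 0 of the 19 member probe sets passed in limma, as did 0% of all 32768. At an unadjusted p under 0.05 there were 4 of the 19, those of UHRF1, DNMT3A, TET3 and MBD4, or 21.1%, where all probe sets gave 13.5%. UHRF1 was higher at high glucose in each line, by 0.10 in Mock, by 0.67 in TET2WT and by 0.24 in TET2M. Its mean was 0.34 ± 0.12 (adjusted p = 0.330, limma). It passed with variances moderated along an intensity trend (adjusted p = 0.0432, limma), where 776 of all probe sets passed. DNMT3A 222640_at was lower in each line, by -0.29, -0.18 and -0.26 (-0.24 ± 0.081, adjusted p = 0.307, limma), and was the 1 member probe set with a negative sign in all 3 lines, where 18.2% of all probe sets had it. TET3 235542_at was higher by 0.14, 0.23 and 0.35 (0.24 ± 0.086, adjusted p = 0.326, limma). Of the 4 MBD4 probe sets, 3 were higher at high glucose in each line, 209579_s_at by 0.23, 0.22 and 0.16 (0.20 ± 0.080, adjusted p = 0.353, limma). The same positive sign in all 3 lines was found for 8 of the 19, 42.1%, where 16.9% of all probe sets had it; the 8 share genes and arrays, and the sign alone carries no size.

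TET2 showed no shared direction by glucose on 1569385_s_at, whereas 227624_at was slightly higher at high glucose in each line. On 1569385_s_at the glucose difference had the values -0.32 (Mock), -0.14 (TET2WT) and 0.20 (TET2M), and on 227624_at 0.01, 0.15 and 0.10. Their means were -0.087 ± 0.12 and 0.087 ± 0.082 (adjusted p = 0.788 and 0.690, limma). In a second model, with 1 residual degree of freedom, the glucose difference of TET2WT was set against the mean of those of TET2M and Mock. TET2WT has 1 array per concentration, so the spread in this model comes from how those 2 lines differ and TET2WT is assumed to vary like them. Here 0 of the 19 passed in limma, as did 0% of all. At an unadjusted p under 0.05 there were 2 of the 19, beside 8.09% of all: UHRF1, whose glucose difference in TET2WT was larger by 0.50 ± 0.14, and TET3 214754_at, larger by 0.65 ± 0.13 (adjusted p = 0.596 for both, limma). DNMT1 differed by 0.047 ± 0.081 over the 3 lines (95% interval -0.15 to 0.24; adjusted p = 0.844, limma) and GADD45A by 0.14 ± 0.084 (adjusted p = 0.504, limma).

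**Figure D4:**
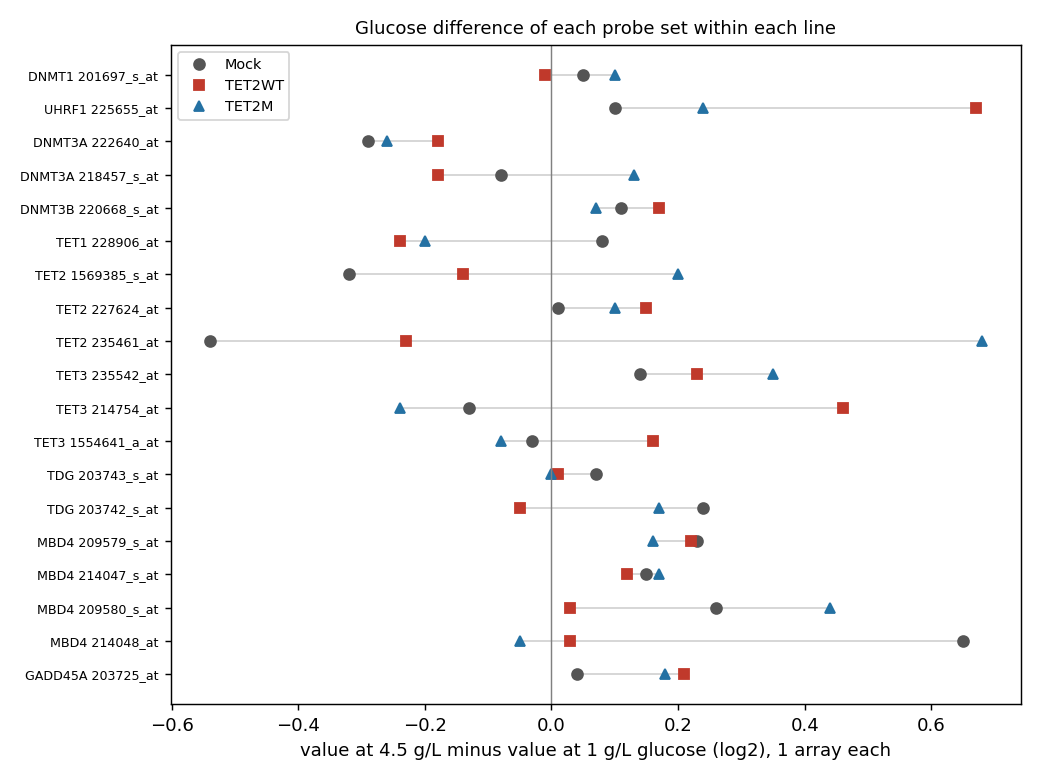
Glucose difference (value at 4.5 g/L minus value at 1 g/L, log2) of the 19 tested probe sets in each line, 1 pair of arrays per point, with a grey line over the range of the 3 lines. UHRF1 lies at 0.67 in TET2WT against 0.10 and 0.24, DNMT3A 222640_at is below 0 in all 3 lines, and TET2 235461_at runs from -0.54 in Mock, on values below the low-value level, to 0.68 in TET2M.

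Genes around these enzymes were taken from 8 lists of 91 genes, each gene by its brightest probe set on average. Of these 76 were tested, the other 15 having no single-gene probe set or none at the low-value level, and 0 of the 76 passed in any comparison, where 3.01% of all 14428 genes passed between TET2WT and Mock, 0.0970% between TET2M and Mock and 2.20% between TET2WT and TET2M. S phase and proliferation genes were the list nearest to UHRF1, whose level follows the cell cycle. All 18 had a positive mean glucose difference and 12 of them in each of the 3 lines, which 16.9% of all probe sets had. The 18 are counted by gene and the 16.9% by probe set. Their median was 0.16 beside -0.02 for all genes, with 0 of 18 past the threshold. The lists were chosen with earlier results of these data known, so such counts are no test. CCNE2, the cyclin of entry into S phase, led with 0.68 ± 0.090 (adjusted p = 0.0977, limma), before CDC6 (0.48), MCM5 (0.37) and PCNA (0.28). MCM4 (0.043) and TYMS (0.05) were the smallest. The mean level of the 18 genes came to 9.11 at high and 8.95 at normal glucose in Mock, 9.10 and 8.81 in TET2WT, and 9.03 and 8.86 in TET2M, so that TET2WT had the widest gap for this list as for UHRF1. The part of proliferation in the UHRF1 values was not tested. Of 9 tested partners of the methyltransferases, HELLS, a chromatin remodeller needed for DNA methylation, had the largest glucose difference, 0.56 ± 0.087 (adjusted p = 0.141, limma), reading 6.90 and 6.38 in Mock, 7.02 and 6.33 in TET2WT, and 6.88 and 6.41 in TET2M. Each line was higher at high glucose, and the list's median was 0.033 with 0 passing.

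The p53 and ATF4 responsive genes, which like GADD45A answer to stress, had a median glucose difference of 0.41 over 9 tested genes. All 9 were positive and 0 passed. ATF3 (0.69), ASNS (0.68) and SESN2 (0.59) were largest, and SESN1 (0.17), CDKN1A (0.047) and DDIT3 (0.043) were smallest. The median therefore does not describe each gene of the list. GADD45A itself stood at 0.14. The 15 tested base excision repair and other demethylation genes had medians between -0.035 and 0.08 in the line and glucose comparisons. POLB, the gap-filling polymerase, was at 0.27 ± 0.12 between TET2WT and Mock (adjusted p = 0.314, limma), with GADD45B at -0.26 and NEIL3 at -0.24. The 9 tested genes of the methyl donor cycle, which makes S-adenosylmethionine, had medians between 0.005 and 0.06. MAT2A, its synthetase, was at 0.16 ± 0.099 between TET2WT and Mock (adjusted p = 0.478, limma). MAT1A (0.35) and MTHFD1 (-0.175) were larger in size there, and neither passed. Of 6 tested readers of methylated DNA, 4 had a positive and 2 a negative difference between TET2WT and Mock, with a list median of 0.16. The largest positive ones were those of ZBTB4 (0.42 ± 0.10), ZBTB38 (0.32 ± 0.10) and ZBTB33 (0.28 ± 0.098), zinc finger proteins that bind methylated sites. They did not pass (adjusted p = 0.115, 0.203 and 0.231, limma). MBD1 (-0.215, lower at both concentrations) and MBD3 (-0.085) went the other way. None of these lists can be called particular from counts and medians alone.

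Of 8 tested TET partners, PROSER1, which acts with TET2 and OGT, was lowest in TET2WT. It read 6.62 and 6.46 in Mock at high and normal glucose, 6.17 and 5.71 in TET2WT, and 6.76 and 6.41 in TET2M, with a difference of -0.60 ± 0.11 from Mock that did not pass (adjusted p = 0.0572, limma). PROSER1 lies on chromosome 13, whose 257 tested genes had a median of -0.31 between TET2WT and Mock, whereas the medians of the other autosomes and X lay between -0.055 and 0.035. The part of the chromosome in its difference was not tested. Of the other TET partners, WT1 was at -0.385 and CXXC5 at 0.285 between TET2WT and Mock, and neither passed. Between TET2M and Mock, WT1 was at -0.285 and CXXC5 at 0.285, and neither passed there. OGT, the O-GlcNAc transferase that binds TET proteins, read 9.27 and 9.43 in Mock, 9.26 and 9.49 in TET2WT, and 9.50 and 9.41 in TET2M, with no order of the lines. Of 10 germline genes that promoter methylation keeps silent in somatic cells, 8 had no probe set at or above the low-value level, DAZL and DDX4 among them, and were not tested. SOHLH2, also on chromosome 13, was at -1.08 ± 0.21 between TET2WT and Mock (adjusted p = 0.0603, limma), and TEX101 at 0.15 ± 0.11.

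Over the 6 arrays the genes whose pattern was most like that of TET2 (1569385_s_at), among 550 others with a span of at least 1, were CCBE1 (Pearson r = 0.991), GGACT (r = 0.955) and PARP9 (r = 0.952). CCBE1, which encodes an extracellular matrix protein of lymphatic development, read 5.20 and 5.23 in Mock at high and normal glucose, 6.46 and 6.34 in TET2WT, and 5.89 and 6.01 in TET2M. It shared the order of the lines with TET2 at a smaller span. GGACT, on chromosome 13, was also highest in TET2WT. It read 3.24 and 3.10 in Mock, 3.94 and 4.11 in TET2WT, and 3.62 and 3.47 in TET2M. Most like TET3 (235542_at) were the keratin gene KRT14 (r = 0.986), LIN28B, an RNA-binding protein that blocks let-7 maturation (r = 0.985), and SPRYD7 (r = 0.984), which lies on chromosome 13. KRT14 read 6.86 and 6.38 in Mock, 4.55 and 3.89 in TET2WT, and 6.22 and 5.91 in TET2M, and LIN28B 6.14 and 5.68, 4.54 and 4.10, and 5.53 and 5.32 in the same order. KRT14 is also a keratinocyte marker. The summed level of the 4 keratinocyte markers came to 14.3 and 14.5 in Mock, 12.9 and 11.4 in TET2WT, and 14.7 and 13.2 in TET2M, with 2 of the 4 above the low-value level on all arrays and CDH1 below it on all 6. The other 3 markers without KRT14 summed to 7.44 and 8.12 in Mock, 8.39 and 7.49 in TET2WT, and 8.45 and 7.33 in TET2M, with no order of the lines shared by both concentrations, so most of the lower sum in TET2WT was KRT14. Their part in the TET3 result was not tested. These correlations rest on 6 arrays that share their lines and are given with no p.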

How the data were processed

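Total RNA of 6 cultures was hybridised to 6 Affymetrix arrays, 1 per line and glucose concentration. The deposited log2 probe set values were exported by Expression Console, a program of Affymetrix, as the notes on processing that the submitters gave record (per the labels). The sources used here do not name its version, its summary method or a background correction, and the range of the values gave the log base. Probe sets were named from the platform's annotation, with symbols updated by gene ID through RefSeq (GRCh38.p14) for 41043 of 41097 single-gene probe sets. The values were used without further normalization. Controls (62) and probe sets with a mean below the 40th percentile were left out, which left 32768. Models were fitted with limma 3.58.1 (lmFit, eBayes) in R 4.3.3: line plus glucose (2 residual degrees of freedom, prior 4.49), and with a glucose term for TET2WT alone (1 and 1.97). Tests were two-sided, adjusted by Benjamini-Hochberg over all probe sets tested, and tested on simulated data.

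The members and lists were chosen with earlier results of these data known. All member probe sets are described. Per list and comparison, up to 4 genes past the threshold or with the largest differences were marked for naming. The text names some of these and some others, so the genes named are not always the largest. Patterns most like a member were sought where its probe set with the highest mean spanned at least 1. Alternatives covered the filter, variance model, normalization, features tested, model terms and arrays left out. Figures were drawn with matplotlib 3.10.9. The labels carry no replicate numbers.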

Additional observations from a re-analysis of the deposited data

Results flagged for a closer look

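The glucose difference of TET2 235461_at ran in opposite directions in the lines, at -0.54 in Mock, -0.23 in TET2WT and 0.68 in TET2M, so Mock and TET2M lay 1.22 apart on the log2 scale, each on 1 pair of arrays. The difference between Mock and TET2M was not tested, and both Mock readings lay below the low-value level. On 1569385_s_at the same differences were -0.32, -0.14 and 0.20. Opposite signs were looked for only where 2 lines lay at least 2-fold apart, a limit chosen after the values were seen.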

How the results depend on the processing

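Without a filter, at the 60th percentile, with robust variances, quantile normalization, cyclic loess or 1 probe set per gene, the member counts between lines stayed within 1.5 times of 3, 1 and 3 (TET2WT and Mock, TET2M and Mock, TET2WT and TET2M). The members counted were not always the same. DNMT3A passed between TET2WT and Mock at the 60th percentile (878 of all 21831 passed) and with 1 probe set per gene (608 of all 14428). With 1 probe set per gene, each of the 10 genes could count only once. An intensity trend gave 2 for TET2M against Mock, with 235461_at, whose Mock values lie below the low-value level, and 1 for glucose. The mean of the probe sets of a gene gave 1 of the 10 genes for TET2WT against Mock, where 587 of all 14428 passed. It gave 1 for TET2WT against TET2M, where 476 of all 14428 passed. Here too each gene counts only once. The 4 arrays of the lines compared, with 1 residual degree of freedom, gave 0 between TET2M and Mock and 0 between TET2WT and TET2M, and TET3 no longer passed between TET2WT and Mock (adjusted p = 0.175, limma). Leaving out 1 array gave 0 to 2, 0 to 0 and 0 to 0 members in the same order of comparisons and 0 to 0 for glucose. No value that passed, or came to pass, changed sign under any alternative run. Over all probe sets the count between TET2WT and Mock went from 737 to 2287 with an intensity trend, 408 without the glucose term, 19 with the 4 arrays alone and 0 to 19 with 1 array left out, and for glucose from 0 to 776 with the trend and 17 without a filter, 13 after quantile normalization and 10 after cyclic loess. Between TET2M and Mock it went from 18 to 156 with the trend and 9 without the glucose term, and between TET2WT and TET2M from 528 to 1837 and 332; both went to 0 with the 4 arrays alone and with any 1 array left out. The glucose term of the model compares the lines within each concentration. The labels carry no replicate numbers, so no other block could be fitted.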
